A study of Mus musculus with 12 samples.

Results

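Disease-associated microglia genes are a set of genes that microglia, the brain's own macrophages, raise in mice around amyloid plaques, dying neurons and damaged myelin. The set described here holds 10 genes, chosen by symbol: Trem2, Tyrobp, Apoe, Cst7, Itgax, Lpl, Spp1, Gpnmb, Clec7a and Cd52. Of these, 9 had a probe set whose only listed gene was that member, 1 probe set each, and all 9 were among the 15273 genes tested. Spp1, which encodes the secreted protein osteopontin, is not analysed here.

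The RNA came from primary cultures of mouse microglia and was hybridised to 12 arrays (Affymetrix Mouse Gene 1.0 ST), which measure each gene with a group of short probes spread along it. The 4 groups of 3 arrays were cells labelled as Tlr4 knockout after 24 h of ischemia, knockout-labelled control cells, wild-type cells after 24 h of ischemia, and wild-type control cells. Ischemia was modelled as loss of oxygen and glucose in culture, and all 4 groups then had 24 h under normal conditions (reperfusion), so each array reads the state after recovery. The labels give no strain, no animal age and no description of the Tlr4 allele, and leave unsaid whether each array stands for its own culture or animal, so the p-values speak for the spread among these arrays, which may be technical. The source name of the wild-type ischemia arrays reads as control normoxia although title and design put them under hypoxia, and the extraction protocol names myocytes where all other labels name microglia.

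TREM2 is a surface receptor for lipids and lipoproteins that signals through the adaptor TYROBP, also called DAP12. In mouse models of neurodegeneration, microglia enter this state in steps: an early step that includes Tyrobp and Apoe, and a later, TREM2-dependent step that includes Cst7, Itgax, Lpl, Clec7a and Cd52. The genes encode proteins of lipid uptake, lysosomal digestion and surface sensing, and homeostatic genes such as P2ry12 and Tmem119 are lowered in the same cells.

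The start-site regions are shown for the members whose promoter holds the letters TGANTCA, a loose form of the AP-1 site, the binding motif of Fos and Jun factors. In RefSeq (GRCm38.p6), 7 of the 10 members had windows of 250 bases before to 50 bases after a start (11 windows, since some genes have several starts). The motif TGANTCA, with any base at N and searched on both strands, was in 4 of the 11 windows, from 4 members, and in 7.81% of all 32851 windows. The usual AP-1 site has C or G at N, as in Itgax and Gpnmb. Trem2 and Cst7 have A and T there, and the share of windows with C or G was not counted. The 4 stretches below run from 100 bases before to 20 bases after the start on the plus strand, with the match in capitals.
Trem2, chr17:48346301-48346420: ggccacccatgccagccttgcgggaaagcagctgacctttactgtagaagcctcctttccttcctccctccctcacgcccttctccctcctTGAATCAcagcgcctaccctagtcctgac
Cst7, chr2:150570315-150570434: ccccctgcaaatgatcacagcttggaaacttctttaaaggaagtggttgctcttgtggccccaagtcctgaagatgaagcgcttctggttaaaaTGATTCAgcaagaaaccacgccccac
Itgax, chr7:128129450-128129569: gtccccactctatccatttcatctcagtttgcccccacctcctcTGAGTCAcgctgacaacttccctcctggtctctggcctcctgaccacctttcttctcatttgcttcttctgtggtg
Gpnmb, chr6:49036418-49036537: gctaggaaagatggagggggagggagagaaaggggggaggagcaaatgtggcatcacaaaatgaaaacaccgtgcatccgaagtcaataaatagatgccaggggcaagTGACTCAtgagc
The match begins 9 bases before the start in Trem2, 6 before it in Cst7, 56 before it in Itgax, and at base 9 of the transcript in Gpnmb. The core GAGGAA of the myeloid factor PU.1 was in 6 of the 11 windows, from 4 members, against 28.3% of all windows; the 2 Clec7a windows overlap and share 1 site. The search found the E-box CACGTG in 0 of 11, against 7.15%. The interferon-stimulated response element was in 1 window, that of Spp1, against 3.44% of all windows. A match is a description of letters, and binding was not measured.

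Across the arrays the members divided into bright, steady genes and a few that moved. Apoe, Lpl and Gpnmb had among the brightest probe sets (percentiles 99.91, 99.72 and 99.93 of all probe sets by mean signal) and the smallest spread within groups, with pooled SDs of 0.12, 0.10 and 0.070 on the log2 scale. Cst7 was the opposite, with a mean signal at percentile 69.72 and a pooled SD of 0.84, larger than that of 99.7% of genes. Cd52 (0.29), Trem2 (0.27) and Itgax (0.25) were also more variable than most genes, at percentiles 90.5, 88.5 and 85.8 of the spread. In whole-culture RNA, fewer cells of a type and less RNA per cell cannot be told apart.

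The arrays numbered 2 of both wild-type groups stood apart from the others, and this touches most values below. The mean signal of 12 interferon-stimulated genes (log2) was 5.62 to 5.92 in knockout-labelled ischemia and 5.79 to 6.14 in knockout-labelled control arrays. It was 10.04 in wild-type ischemia array 2, against 7.87 and 8.32 in the other wild-type ischemia arrays, and 8.80 in wild-type control array 2, against 6.93 and 6.30 in the other wild-type controls. The mean of 12 microglia and macrophage markers was 9.91 to 10.04 in knockout-labelled ischemia and 10.09 to 10.14 in knockout-labelled control arrays. It was 10.76 in both wild-type arrays numbered 2, with the remaining 4 wild-type arrays at 9.88 to 10.34. All 12 microglia and macrophage markers with a probe set lay above the limit of 5.36 below which genes were left out. Among them were Csf1r (12.27), Cd68 (13.15) and Cx3cr1 (8.95), with P2ry12 (5.75) nearest to the limit. The limit is percentile 30 of the probe sets, so a signal above it does not by itself show expression. P2ry12 and Tmem119 (6.51) were dimmer than the neuronal marker Gad1 (6.67). Of 16 homeostatic microglia genes with a probe set, 15 lay above the limit, and Gpr34 below it. Markers of other brain cells were also measured: 6 of 8 astrocyte markers lay above the limit (Aldoc at 8.69) and Aqp4 and Gja1 below it, and all 9 oligodendrocyte lineage markers lay above it (Cnp at 8.31). Of 8 neuronal markers 5 lay above it and Snap25, Tubb3 and Stmn2 below, and of 8 fibroblast and mural markers 5 lay above it (Col1a1 at 7.71) and Dcn, Lum and Rgs5 below. Of 6 endothelial markers 3 lay above it and Pecam1, Cdh5 and Tek below. All 6 dendritic cell markers lay above it, with a mean of 5.60 to 6.21 over the arrays. Tlr4 itself had a signal of 8.76 ± 0.17 in knockout-labelled ischemia, 8.66 ± 0.29 in knockout-labelled control, 8.71 ± 0.26 in wild-type ischemia and 8.76 ± 0.12 in wild-type control arrays (SD, n = 3), so the signal did not separate the genotypes and the arrays are called by their label.

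**Figure D1:**
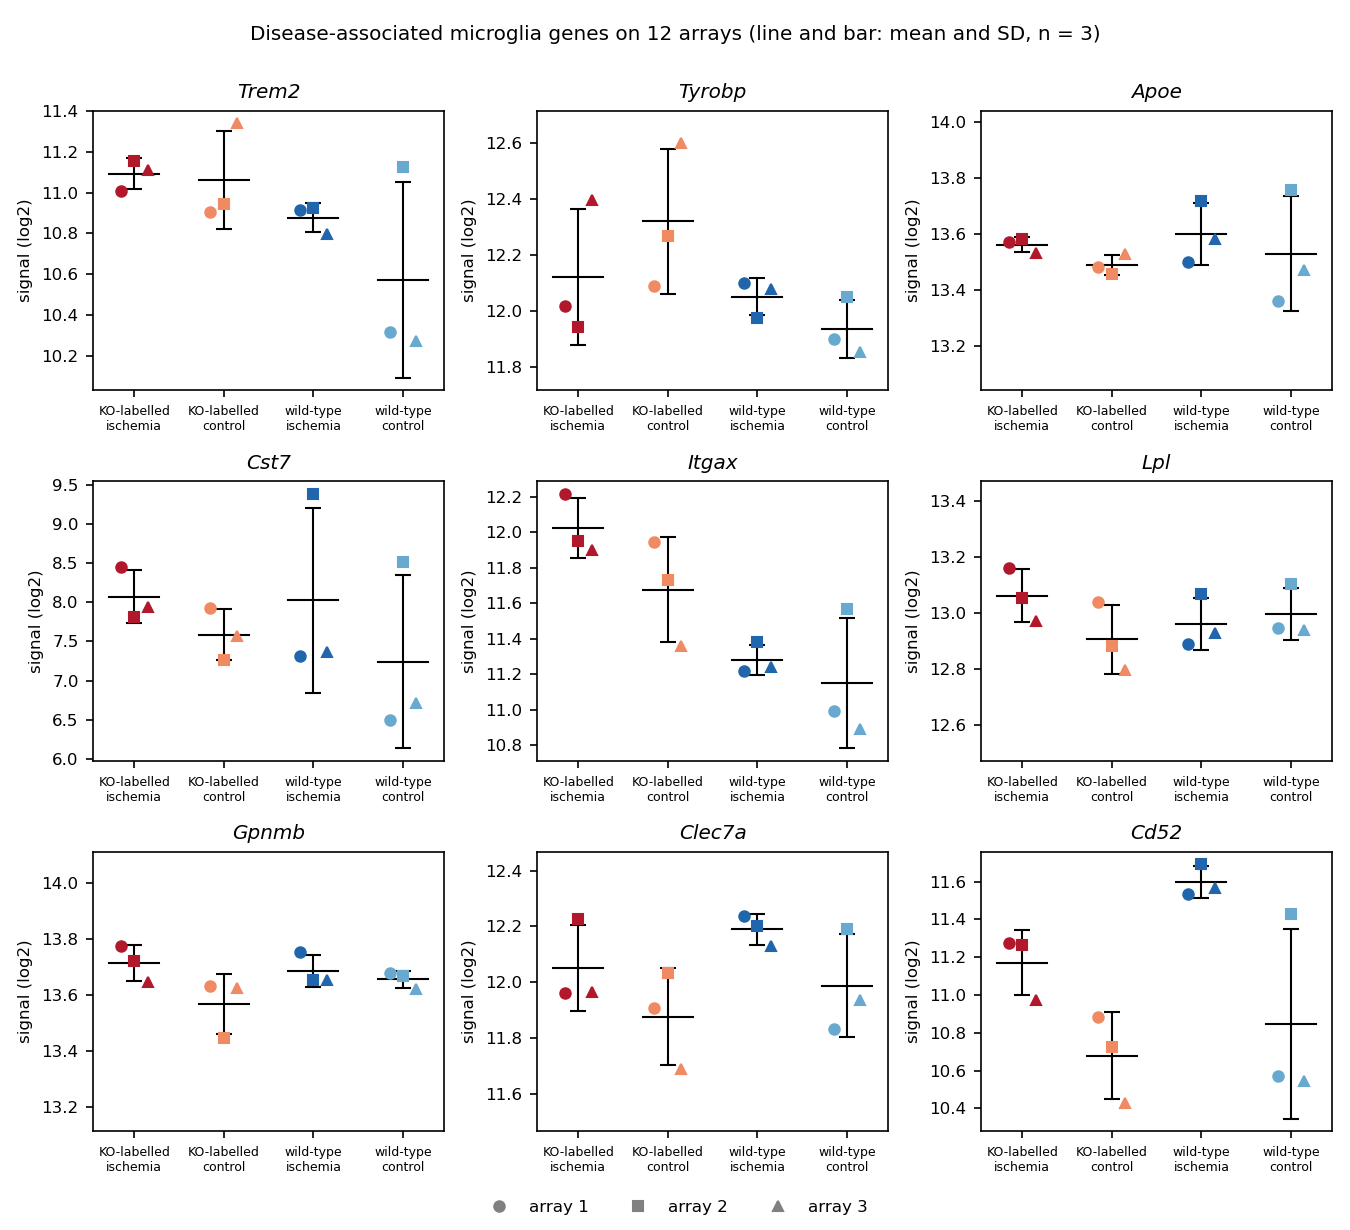
Log2 signal of the 9 measured members on each of the 12 arrays, 1 panel a gene, with circle, square and triangle for arrays 1, 2 and 3 and a line with bar for each group's mean and SD (n = 3). Wild-type arrays numbered 2 sit above their group for Cst7 (9.39 and 8.51), and Itgax is higher in the knockout-labelled ischemia arrays (11.90 to 12.22) than in the wild-type ones (11.22 to 11.38).

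After ischemia and reperfusion, Cst7 and Cd52 were the members with the largest differences from control. Cst7 was 1.40-fold its control level in knockout-labelled cells and 1.72-fold in wild-type cells. Cd52 was 1.41-fold its control level in knockout-labelled cells and 1.68-fold in wild-type cells. Both genes, and Clec7a with them, were higher after ischemia in all 6 same-numbered pairs of arrays. Clec7a, Itgax, Trem2, Tyrobp, Apoe, Lpl and Gpnmb did not pass the test in either genotype.

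Replicates with the same number deviated together within a genotype, so the comparison was also made within pairs, an ischemia array against the control array of that number. Some arrays of unlike number also deviated together (up to r = 0.40, in wild-type arrays), so the pairing is an assumption. Without pairing, limma over all 12 arrays called 0 of 9 members in each genotype at an adjusted p under 0.05, where 0% of all genes tested were called higher or lower in knockout-labelled cells, and 0.0131% higher and 0% lower in wild-type cells. Only Cd52 had an unadjusted p under 0.05, in both genotypes, against 8.73% of all genes in knockout-labelled and 14.7% in wild-type cells. With the pairs as a block, limma called 1 of 9 members higher in knockout-labelled cells (Cst7), where 0.537% of all genes were called higher and 0.111% lower. It called 2 of 9 higher in wild-type cells (Cst7 and Cd52), where 2.99% of all genes were called higher and 0.74% lower. Over both genotypes together the paired fit called the same 2 genes, where 9.11% of all genes were called higher and 3.35% lower; without pairing 0 of 9 were called (0.00655% higher and 0% lower), and Cd52 had an unadjusted p under 0.05 (21.2% of all genes).

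Cst7 encodes cystatin F, an inhibitor of the cysteine proteases (cathepsins) of the endosome and lysosome. Its log2 signal was 8.46, 7.81 and 7.95 on knockout-labelled ischemia arrays 1, 2 and 3, against 7.92, 7.27 and 7.57 on knockout-labelled controls. It was 7.32, 9.39 and 7.37 on wild-type ischemia arrays, against 6.50, 8.51 and 6.71 on wild-type controls. The groups overlap in both genotypes, while each ischemia array lies above the control of its own number; array 2 of both wild-type groups is far above the others of its group. The change within pairs was 0.53, 0.55 and 0.37 in knockout-labelled cells and 0.82, 0.88 and 0.65 in wild-type cells, all on the log2 scale. The mean change of 0.48 in knockout-labelled cells had a limma adjusted p of 0.770 without pairing (SE 0.56) and of 0.0370 with it (SE 0.095). The mean change of 0.78 in wild-type cells had a limma adjusted p of 0.504 without pairing (SE 0.56) and of 0.000601 with it (SE 0.095). The call in knockout-labelled cells was lost when pair 2 (limma adjusted p = 0.356) or pair 3 (0.126) was left out, and stood at 0.0458 without pair 1; in wild-type cells it held without each pair in turn (0.00218 to 0.00824).

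The level of Cst7 moved with the interferon-stimulated genes in wild-type arrays, whose array 2 was highest for both. In knockout-labelled pairs Cst7 was higher after ischemia while the interferon-stimulated mean was lower in each pair (5.62, 5.92 and 5.66 after ischemia, against 5.79, 6.14 and 5.82 in control). As a description over 12 arrays, which share 4 groups and 6 pairs, deviations of Cst7 from its group means correlated with those of the interferon-stimulated mean at r = 0.90, of the microglia marker mean at 0.87 and of Apoe at 0.87. The wild-type arrays numbered 2 weigh heavily in the r of 0.90. In both knockout-labelled groups Cst7 was highest on array 1 and lowest on array 2, and the interferon-stimulated mean was the reverse. The part of these genes in the change of Cst7 was not tested.

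**Figure D2:**
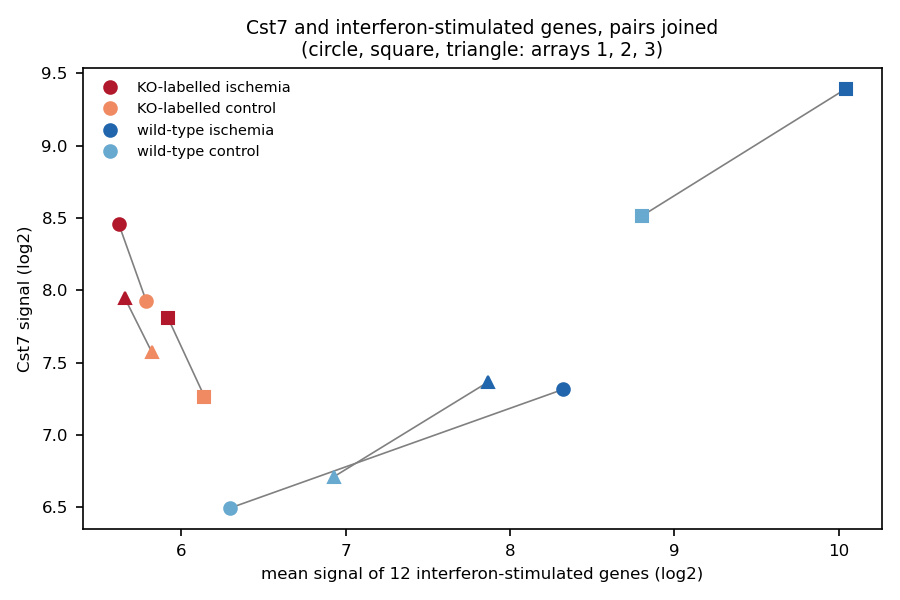
Cst7 signal (log2) on the y axis against the mean signal of 12 interferon-stimulated genes (log2) on the x axis, 1 point an array, with a grey line joining each ischemia array to the control array of its number. All 6 lines run upward from control to ischemia in Cst7, and the wild-type pair 2 lies apart at 9.39 and 8.51.

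Cd52 encodes a small glycoprotein held on the outer surface of leukocytes by a lipid anchor. Its log2 signal was 11.27, 11.27 and 10.97 on knockout-labelled ischemia arrays 1, 2 and 3, against 10.88, 10.73 and 10.43 on knockout-labelled controls. It was 11.53, 11.69 and 11.57 on wild-type ischemia arrays, against 10.57, 11.43 and 10.54 on wild-type controls. The ischemia and control arrays did not overlap in either genotype, although the lowest wild-type ischemia array (11.53) and wild-type control array 2 (11.43) lay close together. The change within pairs was 0.39, 0.54 and 0.55 in knockout-labelled cells (SD 0.087) and 0.96, 0.26 and 1.02 in wild-type cells (SD 0.42). The mean change of 0.49 in knockout-labelled cells had a limma adjusted p of 0.560 without pairing and 0.0877 with it, and so was not called. The mean change of 0.75 in wild-type cells (95% interval 0.30 to 1.20 without pairing) had a limma adjusted p of 0.267 without pairing and 0.00707 with it.

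The wild-type call of Cd52 rests on few arrays. In the paired limma fit it was lost without wild-type pair 1 (adjusted p = 0.0887) or pair 3 (0.0657), and the change was 0.99 without pair 2 (adjusted p = 0.00149). Without pairing it became a call when wild-type control array 2 was left out (1.04, limma adjusted p = 0.0160). Wild-type control array 2, the highest control array for Cd52, also had the highest mean of 7 cell division genes (7.86, against 6.55 and 6.33 in the other wild-type controls). Over 12 arrays, deviations of Cd52 from its group means correlated at r = 0.95 with those of the mean of the 6 cell division genes tested (without Bub1). The part of this array and of these genes in the result was not tested.

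Clec7a encodes Dectin-1, a C-type lectin receptor for fungal beta-glucans. Its log2 signal was 11.96, 12.23 and 11.96 after ischemia, against 11.91, 12.03 and 11.69 in control, on knockout-labelled arrays. On wild-type arrays it was 12.24, 12.20 and 12.13 after ischemia, against 11.83, 12.19 and 11.94 in control. All 6 pairs lay on the same side, by 0.05, 0.20 and 0.27 in knockout-labelled and 0.40, 0.01 and 0.19 in wild-type cells, but neither mean (0.17 and 0.20) passed the test (paired limma adjusted p = 0.375 and 0.242). Being higher in 6 of 6 pairs was seen for 3 of 9 members and for 10.7% of all genes tested. In all 3 knockout-labelled pairs 7 of 9 members were higher (20.8% of all genes), and in all 3 wild-type pairs 3 of 9 (25.8%).

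Itgax encodes the alpha X integrin subunit, CD11c, a receptor subunit also used to mark dendritic cells. Its log2 signal was 12.22, 11.95 and 11.90 on knockout-labelled ischemia arrays, against 11.94, 11.73 and 11.36 on knockout-labelled controls. On wild-type arrays it was 11.22, 11.38 and 11.24 after ischemia, against 10.99, 11.57 and 10.89 in control. The ischemia array was the higher one in all 3 knockout-labelled pairs and in wild-type pairs 1 and 3, and the lower one in wild-type pair 2. Neither the mean of 0.35 in knockout-labelled cells (paired limma adjusted p = 0.141) nor that of 0.13 in wild-type cells (0.491) passed the test.

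Trem2 and its adaptor gene Tyrobp showed no common direction. The change of Trem2 within pairs was 0.10, 0.21 and -0.23 in knockout-labelled cells, and 0.60, -0.20 and 0.52 in wild-type cells. The mean of 0.03 in knockout-labelled cells had a paired limma adjusted p of 0.931, and that of 0.31 in wild-type cells one of 0.206. Without wild-type pair 2 the wild-type change of Trem2 was 0.56 and passed the paired test (limma adjusted p = 0.0407). The change of Tyrobp within pairs was -0.07, -0.32 and -0.20 in knockout-labelled cells, and 0.20, -0.08 and 0.23 in wild-type cells. Its means of -0.20 in knockout-labelled and 0.12 in wild-type cells did not pass (paired limma adjusted p = 0.297 and 0.483).

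The lipid genes Apoe and Lpl and the lysosomal glycoprotein gene Gpnmb had small differences within pairs, none of which passed the test. Apoe, which encodes the apolipoprotein that carries lipid between brain cells and binds TREM2, was 13.57, 13.58 and 13.53 after ischemia, against 13.48, 13.46 and 13.53 in control, on knockout-labelled arrays. On wild-type arrays Apoe was 13.50, 13.72 and 13.58 after ischemia, against 13.36, 13.76 and 13.47 in control. These groups barely miss overlapping in knockout-labelled cells (lowest ischemia array 13.5324, highest control array 13.5304). They overlap in wild-type cells, where array 2 is highest in both conditions.

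Lpl, the lipase that frees fatty acids from lipoproteins, changed within pairs by 0.12, 0.17 and 0.18 in knockout-labelled cells and by -0.06, -0.04 and -0.01 in wild-type cells. Gpnmb, which encodes a transmembrane glycoprotein of lysosomes, changed within pairs by 0.14, 0.28 and 0.02 in knockout-labelled cells and by 0.08, -0.02 and 0.03 in wild-type cells. The 95% intervals without pairing bound these changes: in knockout-labelled cells -0.16 to 0.31 for Apoe, -0.06 to 0.37 for Lpl and -0.04 to 0.34 for Gpnmb, and in wild-type cells -0.16 to 0.30, -0.25 to 0.18 and -0.16 to 0.22. The probe sets of these 3 genes are near the top of the signal range of the arrays (highest value 14.51).

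**Figure D3:**
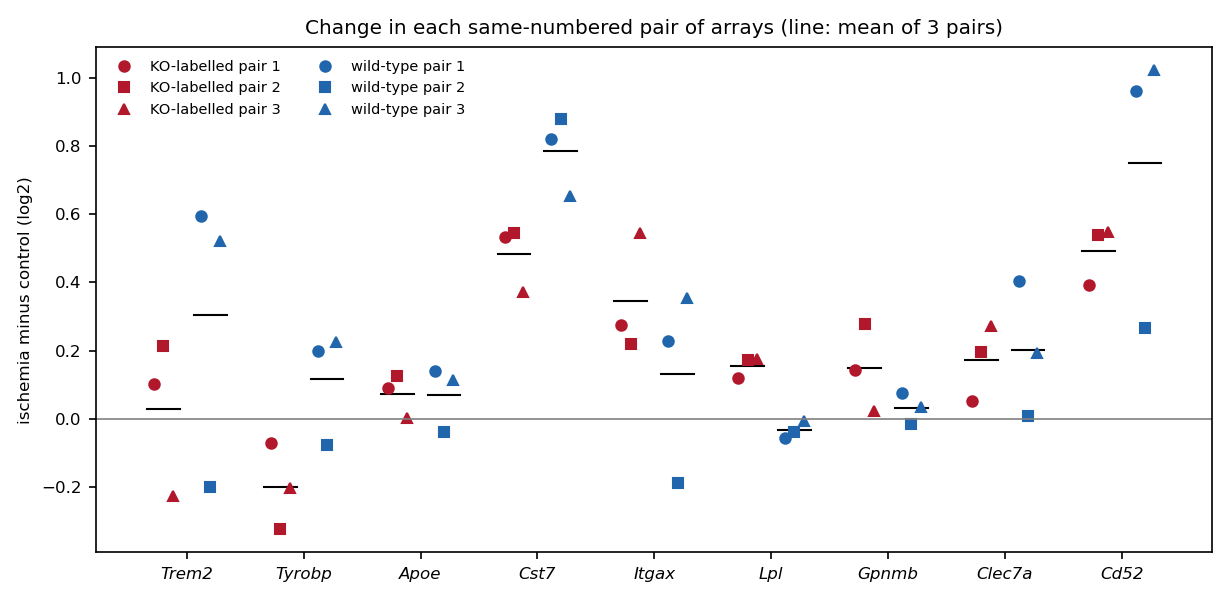
Ischemia minus control signal (log2, y axis) within each same-numbered pair of arrays for the 9 members (x axis), knockout-labelled pairs beside wild-type pairs, with a line at the mean of 3 pairs. All 6 points lie above 0 for Cst7, Clec7a and Cd52, and the knockout-labelled and wild-type points lie on opposite sides of 0 for Lpl, whose wild-type mean was -0.03 and 0.03 after median centring.

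As a group, 8 of 9 members had a difference above 0 in knockout-labelled cells and 8 of 9 in wild-type cells, where 49.8% and 52.4% of all genes did. The exceptions were Tyrobp in knockout-labelled and Lpl in wild-type cells; median centring turned Lpl in wild-type cells to 0.03, and quantile normalization turned Trem2 in knockout-labelled cells to -0.02 and Tyrobp in wild-type cells to -0.00031. The median difference of the members was 0.16 in knockout-labelled cells, against -0.00 over all genes, and 0.13 in wild-type cells, against 0.01 over all genes. The median over all genes depended on signal. With the filter at percentile 50 it was 0.03 in knockout-labelled and 0.07 in wild-type cells, and without a filter -0.02 and -0.01. All measured members but Cst7 were at percentile 96.23 of signal or higher, so the values over all genes are not those of equally bright genes. The ischemia and control arrays did not overlap, with ischemia higher, for 3 of 9 members in knockout-labelled cells (Apoe, Gpnmb and Cd52; 7.94% of all genes) and for 1 of 9 in wild-type cells (Cd52; 9.38% of all genes). The knockout-labelled separation was very small for Apoe (13.5324 against 13.5304) and Gpnmb (13.649 against 13.635). No member was lower in this way in knockout-labelled cells (6.36% of all genes) or in wild-type cells (12.3%). Markers of other cells differed beside the members. All 5 neuronal and all 5 fibroblast and mural markers tested lay below 0 in both genotypes. Their medians were -0.10 and -0.18 in knockout-labelled, and -0.27 and -0.32 in wild-type cells. Of 9 oligodendrocyte lineage markers 7 lay below 0 in knockout-labelled and 8 in wild-type cells, and of 6 dendritic cell markers 4 and 5. Of 6 astrocyte markers 4 and of 4 neutrophil markers 3 lay below 0 in each genotype, and of 3 lymphocyte markers 2 and 3. Of 3 endothelial markers 3 lay above 0 in knockout-labelled (median 0.33) and 2 in wild-type cells (0.40). The paired limma fit called 1 of these higher in each genotype and 1 lower in wild-type cells. The lower one was Cldn5, at 6.02, 5.96 and 5.95 after ischemia, against 6.47, 6.27 and 6.41 in control. The neuronal markers tested had mean signals of only 5.48 to 6.67, and the fibroblast and mural ones of 6.10 to 7.71. Of 6 cell division genes, 0 fell in knockout-labelled and 4 in wild-type cells by the paired limma fit (medians -0.13 and -0.72). Of 12 microglia and macrophage markers, 3 fell and 0 rose in knockout-labelled cells, while 1 rose and 0 fell in wild-type cells by that fit. Over all genes that fit called 0.537% higher and 0.111% lower in knockout-labelled cells, and 2.99% and 0.74% in wild-type cells. The part of these markers and cell division genes in the differences of the members was not tested.

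The ischemia effects of the 2 genotypes could not be told apart for any member. The difference of the effects, knockout-labelled minus wild type, passed in 0 of 9 members in both limma fits, where the paired fit called 0.0131% of all genes higher and 0.295% lower and the fit without pairing called 0%. It was -0.30 for Cst7 (paired 95% interval -0.59 to -0.01, limma adjusted p = 0.578) and -0.32 for Tyrobp (-0.62 to -0.01, 0.578), the 2 of 9 members with an unadjusted p under 0.05 in the paired fit (8.45% of all genes); none had one without pairing (2.9%). For Cd52 it was -0.26 (-0.65 to 0.14) and for Trem2 -0.28 (-0.71 to 0.15). The median over the members was -0.03, against 0.01 over all genes.

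Between the genotypes, Itgax and Trem2 were higher in knockout-labelled than in wild-type cells by the largest amounts, without passing the test over all genes. Limma called 0 of 9 members in control cells, where 0.00655% of all genes were called higher and 0.0524% lower in knockout-labelled cells. It called 0 of 9 after ischemia, where 0.0655% of all genes were called higher and 0.648% lower. Averaged over both conditions it called 0 of 9, where 0.0131% of all genes were called higher and 0.0851% lower, and Trem2 and Itgax had an unadjusted p under 0.05 (7.05% of all genes). In the single conditions an unadjusted p under 0.05 was found for Trem2, Tyrobp and Itgax in control cells (7.14% of all genes) and for Itgax after ischemia (8.35%).

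Itgax signal was 0.74 higher in knockout-labelled than in wild-type cells after ischemia (95% interval 0.35 to 1.14, limma adjusted p = 0.116), a 1.67-fold difference, and 0.53 higher in control cells (0.13 to 0.93, adjusted p = 0.623). After ischemia the 3 knockout-labelled arrays all lay above the 3 wild-type arrays, while in control cells wild-type array 2 (11.57) lay above knockout-labelled array 3 (11.36). Over both conditions, with each pair averaged first, Itgax was 0.64 higher in knockout-labelled cells (0.28 to 0.99, limma adjusted p = 0.313), and 0.77 higher without wild-type pair 2 (adjusted p = 0.0421). The difference after ischemia became a limma call in a fit of the 6 ischemia arrays alone (adjusted p = 0.0331) and without wild-type arrays 2 (0.0249), and also with a replicate block of 3 levels (0.0350), which joins equal numbers across genotypes, a pairing that the check of deviations did not bear out for every number. Of the 6 dendritic cell markers, beside it, 5 were also higher in knockout-labelled cells after ischemia. The median difference of the 6 was 0.21, with an unadjusted limma p under 0.05 for 2 (8.35% of all genes) and 0 called. These 5 had mean signals of only 5.39 to 6.83. Clec9a was lower on average: 5.67, 6.05 and 5.79 on knockout-labelled ischemia arrays, against 7.44, 5.06 and 7.86 on wild-type ones. The mean of the 6 markers was 5.88 to 6.07 in knockout-labelled ischemia and 5.60 to 6.17 in wild-type ischemia arrays. The part of these markers in the difference of Itgax was not tested.

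Trem2 signal was 11.01, 11.16 and 11.11 on knockout-labelled ischemia arrays, against 10.91, 10.92 and 10.80 on wild-type ones. In control cells it was 10.91, 10.94 and 11.34 on knockout-labelled arrays, against 10.32, 11.13 and 10.27 on wild-type ones. The groups did not overlap after ischemia (difference 0.21, limma adjusted p = 0.845) and overlapped in control cells through wild-type array 2 (difference 0.49, 95% interval 0.07 to 0.91, adjusted p = 0.660). Without the wild-type arrays numbered 2 the control difference was 0.77 and passed (limma adjusted p = 0.0254).

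Tyrobp was 12.09, 12.27 and 12.60 on knockout-labelled controls, against 11.90, 12.05 and 11.85 on wild-type controls, groups that did not overlap. Its difference of 0.39 in control cells had a limma adjusted p of 0.646. After ischemia Tyrobp was 12.02, 11.94 and 12.40 on knockout-labelled arrays, against 12.10, 11.97 and 12.08 on wild-type ones, and the groups overlapped. Cd52 had the largest difference in the other direction after ischemia: its 3 knockout-labelled ischemia arrays (10.97 to 11.27) lay below the 3 wild-type ones (11.53 to 11.69), by 0.43 on average (limma adjusted p = 0.624). Clec7a (-0.14) and Apoe (-0.04) also had differences below 0 after ischemia.

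In control cells the groups did not overlap for 1 of 9 members, higher in knockout-labelled cells (Tyrobp; 5.37% of all genes), and 0 were lower in this way (4.52%). After ischemia they did not overlap for 2 members higher (Trem2 and Itgax; 8.38% of all genes) and 1 lower (Cd52; 8.07%). The median difference of the 9 members was -0.04 in control cells and 0.05 after ischemia, against 0.00 and 0.01 over all genes. Apoe, Lpl, Gpnmb and Clec7a differed between the genotypes by at most 0.14 in either direction in both conditions. These 4 have 95% intervals for the difference after ischemia of -0.27 to 0.20, -0.12 to 0.32, -0.16 to 0.22 and -0.41 to 0.13, in that order.

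**Figure D4:**
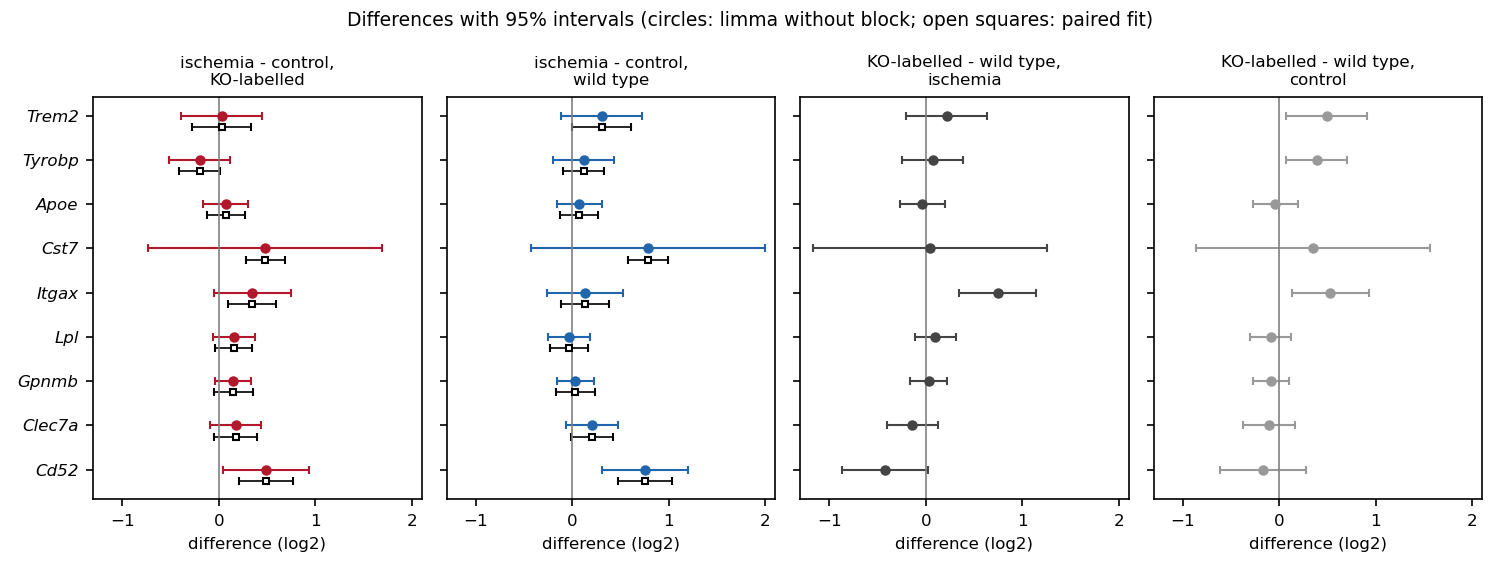
Differences of log2 signal (x axis) with 95% intervals for the 9 members (y axis) in the ischemia comparisons and the genotype comparisons, with circles for limma without a block and open squares for the paired fit where one exists. For Cst7 the interval after ischemia in wild-type cells is 0.58 to 0.99 within pairs and spans 0 without pairing.

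Several members varied together within the groups of arrays. As a description over 12 arrays that share 4 groups and 6 pairs, deviations from group means correlated at r = 0.93 for Itgax with Cd52, 0.89 for Itgax with Lpl, 0.80 for Lpl with Cd52 and 0.87 for Apoe with Cst7. Other pairs of these genes were also above 0.7, among them Cst7 with Lpl (0.77), Apoe with Cd52 (0.76) and Cst7 with Cd52 (0.71), while Tyrobp with Lpl was at -0.56. Trem2's ligand gene Apoe also varied with the mean of the microglia markers (0.96). With the group means left in, r over the 12 arrays was lower for several of these pairs. It was 0.19 for Itgax with Cd52, 0.55 for Itgax with Lpl, 0.51 for Lpl with Cd52 and 0.84 for Apoe with Cst7. Wild-type control array 2 was the highest of its group for Itgax (11.57), Cd52 (11.43), Apoe (13.76), Cst7 (8.51) and the microglia marker mean (10.76). Of all genes tested, those whose signal over the 12 arrays was most like that of Cst7 were Ahsa1 (r = 0.947), Eid1 (0.942) and Pkib (0.938), and those most like Cd52 were Rbx1 (0.969), Atp5j (0.966) and Acat1 (0.963). Closest to Itgax were Csrnp2 (0.950), Ank (0.942) and Sardh (0.939), closest to Trem2 were Gamt (0.940), Copz2 (0.932) and Ndufa4 (0.924), and closest to Gpnmb were Psap (0.896), Ctsd (0.891) and 3000002C10Rik (0.882).

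Beyond the members, the genes of the disease-associated state were counted in a stage 1 and a stage 2 list. Of 10 stage 1 genes, among them Tyrobp, Apoe and Trem2 with the cathepsins Ctsb and Ctsd, 9 were tested and 0 passed in any comparison by either limma fit. At an unadjusted p under 0.05 without pairing there were 0 for ischemia against control in each genotype. Between the genotypes there were 2 after ischemia (8.35% of all genes) and 4 in control cells (7.14%). Their differences after ischemia were above 0 for 6 of 9 in knockout-labelled cells and 8 of 9 in wild-type cells, with medians of 0.07 in each. Of 27 stage 2 genes, 25 were tested, and 21 lay above 0 in knockout-labelled and 22 in wild-type cells, with medians of 0.12 and 0.13. In the paired fit 2 of these 25 rose in knockout-labelled cells (Cst7 and Csf1), where 0.537% of all genes were called higher. In wild-type cells 4 rose (Cst7, Cd52, Csf1 and Lgals3bp; 2.99% of all genes), and 0 fell in either genotype (0.111% and 0.74%). Over both genotypes together 5 of 25 rose and 0 fell, the same 4 and Ccl6, where 9.11% of all genes were called higher and 3.35% lower. Without pairing 0 rose or fell in these ischemia comparisons by limma. An unadjusted p under 0.05 was found for 3 in knockout-labelled (8.73% of all genes) and 5 in wild-type cells (14.7%).

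Csf1, a growth factor on which microglia depend, changed within pairs by 0.77, 0.58 and 0.96 in knockout-labelled cells and by 0.13, 0.81 and 0.87 in wild-type cells. Its mean of 0.77 in knockout-labelled cells had a paired limma adjusted p of 0.0223, lost without pair 2 (0.123) or pair 3 (0.200). Its mean of 0.60 in wild-type cells had a paired limma adjusted p of 0.0266, lost without pair 2 (0.117) or pair 3 (0.160). All 6 pairs lay on the same side.

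Lgals3bp, a secreted glycoprotein that binds galectins and is also induced by interferon, differed by genotype. Its log2 signal was 11.08, 11.23 and 11.33 on knockout-labelled ischemia arrays, against 12.79, 13.10 and 12.54 on wild-type ischemia arrays. This was the only gene of the stage 2 list called between genotypes in either condition, lower in knockout-labelled cells after ischemia (log2 difference -1.60, SE 0.18, limma adjusted p = 0.00136, without pairing). In wild-type cells it rose after ischemia by 0.59 (paired limma adjusted p = 0.00574; 0.0930 without pair 1), while the knockout-labelled pairs were at -0.04, -0.15 and -0.03. Its call over both genotypes was lost in 4 of the 6 fits that left out a pair (limma adjusted p = 0.0572 to 0.145 in these). The chemokine gene Ccl6 rose by 0.34 over both genotypes (paired limma adjusted p = 0.0139), with all 6 pairs above 0, a call lost without knockout-labelled pair 2 (0.0605) or wild-type pair 1 (0.0568).

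**Figure D5:**
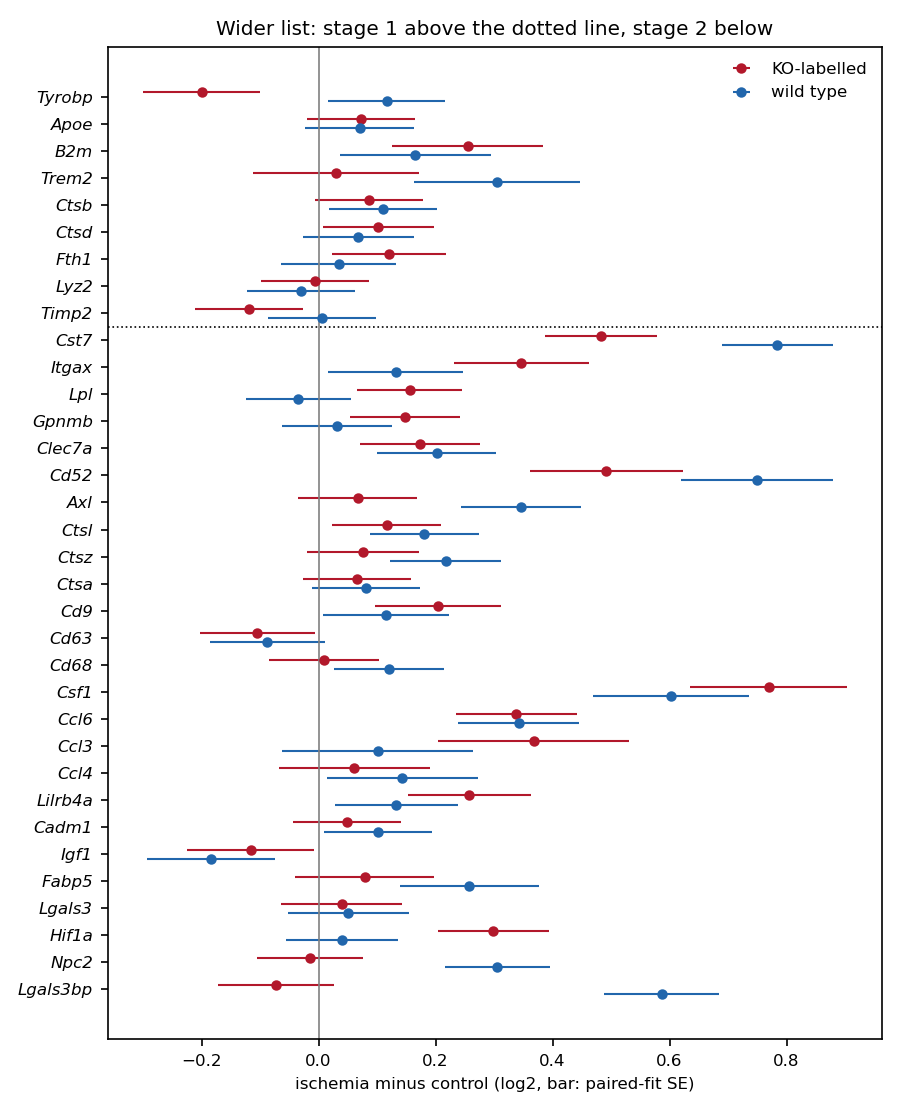
Mean ischemia minus control difference (log2, x axis; bars are the paired fit's SE) for the tested genes of the stage 1 list, above the dotted line, and the stage 2 list, below it (y axis), in knockout-labelled and wild-type cells. Csf1, Cst7 and Cd52 lie well above 0 in both genotypes, and Lgals3bp is at 0.59 in wild type.

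The list of TREM2 and DAP12 signalling, which includes other receptors and sheddases, had 16 tested genes. By the paired limma fit 1 rose after ischemia in knockout-labelled cells, where 0.537% of all genes were called higher. In wild-type cells 0 passed, where 2.99% of all genes were called higher and 0.74% lower. An unadjusted p under 0.05 in that fit was found for 2 in knockout-labelled (19.2% of all genes) and 3 in wild-type cells (24.1%). The gene that rose was Clec5a, a lectin receptor that also signals through DAP12. It changed within pairs by 0.57, 1.08 and 0.91 in knockout-labelled cells and by 0.33, 0.57 and 0.28 in wild-type cells. Its mean of 0.86 in knockout-labelled cells had a paired limma adjusted p of 0.00547, lost without pair 2 (0.109) or pair 3 (0.0909). Over both genotypes it rose by 0.63 (paired limma adjusted p = 0.00100), the only call among the 16, where 9.11% of all genes were called higher and 3.35% lower.

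Of 13 genes of lipid handling beside Apoe and Lpl, 0 rose in knockout-labelled cells by the paired limma fit (0.537% of all genes). In wild-type cells 1 rose by that fit (2.99% of all genes). An unadjusted p under 0.05 in it was found for 5 in knockout-labelled (19.2% of all genes) and 3 in wild-type cells (24.1%). The gene that rose was Apoc1, an apolipoprotein gene of the Apoe cluster. Its change was 0.48 in wild-type cells (paired limma adjusted p = 0.0333, and 0.0978 to 0.144 without each wild-type pair in turn). Of 11 transcription factors placed upstream of the members, 0 passed in either genotype alone by either limma fit, with an unadjusted p under 0.05 in the paired fit for 3 in knockout-labelled (19.2% of all genes) and 1 in wild-type cells (24.1%). Over both genotypes 1 of the 11 was called higher and 1 lower by the paired fit, where 9.11% of all genes were called higher and 3.35% lower. Tfec, a factor of the MiT/TFE family, rose by 0.35 (paired limma adjusted p = 0.0230) and Cebpa, a myeloid factor, fell by 0.28 (0.0284). Each call was lost in 4 of the 6 fits that left out a pair: that of Tfec without knockout-labelled pairs 2 (0.0924) and 3 (0.0832) and wild-type pairs 1 (0.0699) and 3 (0.0623), and that of Cebpa without knockout-labelled pairs 2 (0.103) and 3 (0.0682) and wild-type pairs 1 (0.106) and 2 (0.0849).

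The homeostatic genes did not fall together after ischemia. Of 15 tested, 1 fell in knockout-labelled cells (0.111% of all genes) and 1 rose in wild-type cells (2.99%) by the paired fit, and the medians were 0.04 in both. Over both genotypes together that fit called 2 higher (9.11% of all genes) and 1 lower (3.35%). Cx3cr1, the fractalkine receptor gene, fell by 0.61 in knockout-labelled cells (paired limma adjusted p = 0.0182; 0.182 without pair 2 and 0.135 without pair 3) and over both genotypes by 0.43, with all 6 pairs below 0. P2ry13, a purine receptor gene, rose by 0.41 in wild-type cells (paired limma adjusted p = 0.0401; 0.0923 to 0.258 without each wild-type pair in turn) and over both genotypes by 0.37, with all 6 pairs above 0. Txnip was also higher in all 6 pairs, by 0.24, 0.31 and 0.39 in knockout-labelled and 0.24, 0.32 and 0.16 in wild-type cells. Over both genotypes its paired limma adjusted p was 0.0191 to 0.0756 without each of the 6 pairs in turn.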

How the data were processed

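RNA of 12 samples was hybridised to 1 Affymetrix Mouse Gene 1.0 ST array each. The deposited values are log2 signals; the authors used RMA (background correction, quantile normalization between arrays, summary per probe set) in Affymetrix Expression Console 1.1, per the submitters' processing notes. Scanner files were not used here, and overall differences in RNA content cannot be seen after this step. Groups and replicate numbers came from the titles.

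Of 35557 probe sets, 21789 had 1 gene symbol, 1621 several and 12147 were not listed; 21698 symbols were updated by Entrez identifier to GRCm38.p6 names. The brightest probe set by mean over 12 arrays stood for a gene (999 had several), and 15273 genes with a mean above 5.36 (log2), percentile 30 over the probe sets, were kept. Limma 3.58.1 in R 4.3.3 (lmFit, eBayes) fitted 1 mean per group over all 12 arrays, and a call needed a p under 0.05 after Benjamini-Hochberg adjustment over these 15273 genes. The mean genotype difference was fitted on the mean of each pair. The fits with and without pairing were tested on simulated data with known changes in the wild-type ischemia comparison only. The genotype comparisons were not simulated.

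Deviations from group means of same-numbered arrays correlated at 0.36, 0.32 and 0.49 between ischemia and control in knockout-labelled arrays and at 0.48, 0.73 and 0.48 in wild-type arrays, each above 0.1. The numbers were therefore taken as pairs within a genotype, on the data and not on the labels, and the paired fit adds a term for each such pair. Arrays of unlike number ran from -0.44 to 0.22 in knockout-labelled and from -0.62 to 0.40 in wild-type arrays. Some of these were also above 0.1: knockout-labelled ischemia 2 with control 1 (0.22), and wild-type ischemia 3 with control 1 (0.40) and ischemia 1 with control 3 (0.12). Between genotypes the values were -0.33 to 0.33, and no pairs were taken.

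Members and gene lists were chosen with earlier results of these data known. Named genes are the members, the 3 genes most correlated with a member, and called genes of the lists. A fold is 2 to the power of a log2 difference. Promoter windows are RefSeq's for GRCm38.p6. Alternatives changed the replicate block, the arrays fitted, the filter, the normalization, the probe set rule, the variance prior and leaving out arrays or pairs. The number of arrays limits the precision.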

Additional observations from a re-analysis of the deposited data

Results flagged for a closer look

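Lpl was the member whose pairs moved in opposite directions in the 2 genotypes. The change after ischemia was 0.12, 0.17 and 0.18 in knockout-labelled pairs and -0.06, -0.04 and -0.01 in wild-type pairs, on the log2 scale. The difference of the mean changes was 0.19 (95% interval -0.12 to 0.50 without pairing), and it did not pass the limma test with pairing (adjusted p = 0.698) or without it (1.00). The wild-type mean of -0.03 became 0.03 after median centring of the arrays.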

How the results depend on the processing

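Without pairing, limma called 0 of 9 members in each of 7 comparisons, and other filters, normalizations, probe set rules or variance priors added none. The replicate block within genotype called 1 member after ischemia in knockout-labelled cells (0 to 1 when a pair was left out), 2 in wild-type cells (1 to 3) and 2 over both genotypes (2 to 4, the 4 being Trem2, Cst7, Itgax and Cd52 without wild-type pair 2). A paired fit of 1 genotype's 6 arrays, chosen after seeing the data, called 0 in knockout-labelled cells (adjusted p = 0.0557 for Cst7 and 0.0514 for Cd52) and 2 in wild-type cells. Leaving out single arrays without the block gave 0 to 1 calls for ischemia in wild-type cells and over both genotypes (Cd52, without wild-type control array 2) and 0 to 1 for the mean genotype difference (Itgax, without wild-type pair 2). Without wild-type replicate 2 in both conditions, chosen after seeing the data, 1 member was called for ischemia in wild-type cells and over both genotypes (Cd52), 1 between genotypes in control cells (Trem2), 1 after ischemia and 1 over both conditions (Itgax). Between genotypes after ischemia, the 6 arrays alone and a replicate block of 3 levels each called 1 (Itgax).

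Of 1233 values of single members under alternatives, 61 changed sign, in 20 of 63 member and comparison values, and none of these was called (lowest adjusted p 0.842). Quantile normalization turned Trem2 after ischemia in knockout-labelled cells to -0.025, Tyrobp in wild-type cells to -0.00031, Lpl over both genotypes to -0.028, the genotype difference of Apoe in control cells to 0.027, its difference of effects to -0.062 and the mean genotype difference of Lpl to -0.018. Median centring turned Lpl after ischemia in wild-type cells to 0.026, the genotype difference of Gpnmb after ischemia to -0.0013, the difference of effects of Apoe to -0.044 and the mean genotype difference of Lpl to -0.0019. Without wild-type replicate 2 in both conditions, the genotype difference of Apoe was 0.074 in control cells, 0.021 after ischemia and 0.048 over both, its difference of effects was -0.053, the control difference of Cd52 was 0.12 and the mean ischemia effect of Tyrobp was 0.0062. When single arrays or pairs were left out, the ischemia effect ran from -0.063 to 0.17 for Trem2 in knockout-labelled cells, and in wild-type cells from -0.015 to 0.18 for Apoe, -0.087 to 0.020 for Lpl and -0.0021 to 0.054 for Gpnmb. Over both genotypes it ran from -0.11 to 0.028 for Tyrobp. The difference of effects ran from -0.11 to 0.087 for Apoe, -0.94 to 0.38 for Cst7 and -0.13 to 0.073 for Clec7a. The genotype difference in control cells ran from -0.12 to 0.074 for Apoe, -0.025 to 0.98 for Cst7 and -0.32 to 0.12 for Cd52. After ischemia it ran from -0.069 to 0.16 for Tyrobp, -0.088 to 0.021 for Apoe, -0.31 to 0.73 for Cst7 and -0.0016 to 0.062 for Gpnmb. Over both conditions it ran from -0.11 to 0.048 for Apoe, -0.17 to 0.86 for Cst7 and -0.053 to 0.058 for Lpl. The cause was not tested.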

Other observations

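Several gene groups around the members lay lower in knockout-labelled than in wild-type cells without passing the test. Of 16 TREM2 and DAP12 signalling genes, 12 had a difference below 0 after ischemia (median -0.23, against 0.01 over all genes) and 12 in control cells (median -0.16). Limma called 0 of them, and 5 after ischemia (8.35% of all genes) and 3 in control cells (7.14%) had an unadjusted p under 0.05. After ischemia Ptpn6, which encodes the phosphatase SHP-1, was at -0.40 (limma adjusted p = 0.337) and the phospholipase gene Plcg2 at -0.26 (0.462), while the adaptor gene Lat2 was at 0.42 (0.147). Of 13 lipid genes beside Apoe and Lpl, 9 lay below 0 after ischemia, with Abca1, the cholesterol exporter, at -1.21 (limma adjusted p = 0.129) and Nr1h3, which encodes liver X receptor alpha, at -0.74 (0.193). Averaged over both conditions, all 12 measured microglia and macrophage markers lay below 0 in knockout-labelled cells (median -0.17), and limma called 0 of them. Without the wild-type arrays numbered 2, a setting chosen after seeing the data, 8 of the 12 lay below 0 (median -0.05), and C1qa, C1qb, C1qc and Fcrls lay above it. Without those arrays 11 of the 16 TREM2 and DAP12 signalling genes (median -0.15) and 8 of the 13 lipid genes lay below 0 after ischemia.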
